A study of Mus musculus with 9 samples.

Results

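The GIMAP genes (GTPases of immunity-associated proteins) were followed in invariant natural killer T cells of the T-bet-expressing type (iNKT1) from 3 tissues. The members were taken by gene symbol as Gimap1, Gimap3, Gimap4, Gimap5, Gimap6, Gimap7, Gimap8 and Gimap9. All 8 were among the 14004 genes of the deposited table, and all 8 passed the filter on low values that left 13309 genes for testing. The cells came from untreated C57BL/6 mice with the genotype Tbx21CreTg;Rosa26-LSL-YFP+/+, in 3 thymus, 3 liver and 3 spleen libraries. Every group carried this genotype, in which a Cre transgene driven by Tbx21 switches on a yellow fluorescent reporter, so the marked cells are those in which the Tbx21 promoter of the transgene is or has been active. The age and sex of the animals, the sorting gate and any pooling are not given in the sources used here. The design text calls the replicates independent but does not say whether 1 animal gave several libraries, so p-values measure the spread between these libraries.

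GIMAP proteins are small GTPases of lymphocytes that share a GTP-binding AIG1 domain, and several of them sit on intracellular membranes. They are known for setting the survival of T and B lymphocytes. GIMAP5 is found on lysosomes, and its loss depletes mature T cells from the periphery of mice and rats. In mice its loss also depletes natural killer cells and NKT cells. The genes lie side by side in mammals and are also expressed in endothelial cells.

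All 8 members lay in a cluster of 123.6 kb on chromosome 6 of the mm10 mouse build (coordinates of GENCODE M21, GRCm38). Gimap8 opened it at 48647234 to 48660875 on the plus strand, followed on the same strand by Gimap9 at 48676129 to 48679114 and Gimap4 at 48684549 to 48692060. Gimap6 came next at 48701582 to 48708225 on the minus strand. Gimap7 followed at 48718621 to 48724636, Gimap1 at 48739054 to 48743795 and Gimap5 at 48746197 to 48754210, all on the plus strand. Gimap3 closed the cluster at 48764464 to 48770851 on the minus strand. An antisense transcript, Gimap1os, is annotated at 48738346 to 48741444 on the minus strand and shares 1107 of the 3073 exonic bases of Gimap1. The values below are per gene and do not tell its exons or untranslated regions apart.

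**Figure D1:**
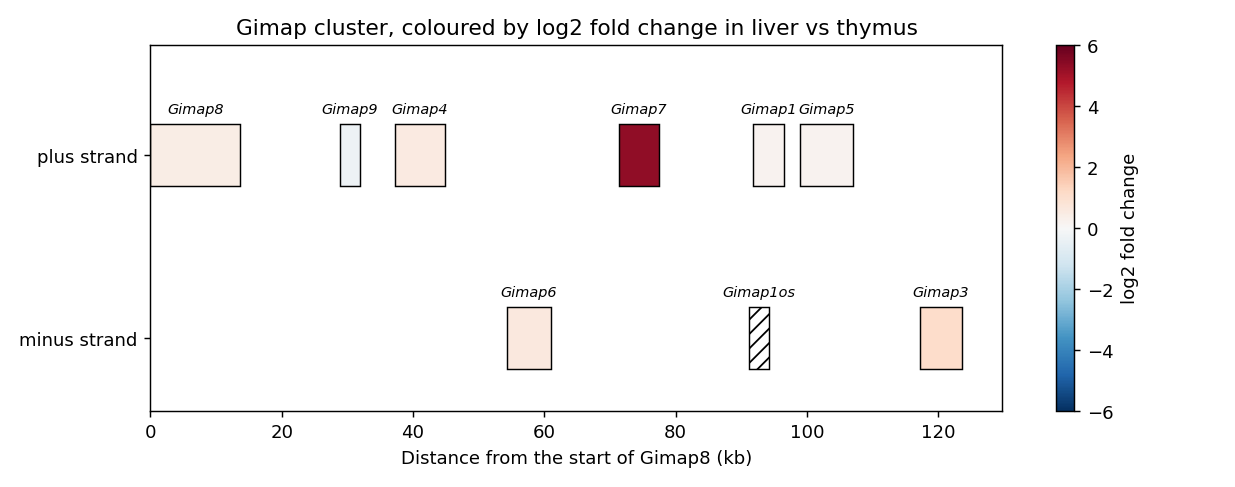
Map of the cluster to scale, measured from where Gimap8 begins, showing the 8 members and Gimap1os by strand. The size of each member's liver vs thymus difference is also marked (log2 scale). Gimap7, in the middle of the cluster, is the member with the greatest such difference (5.31), and those of its neighbours are far smaller.

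Each value below is a read count as normalised by the authors, and ± is the SD over 3 libraries. Recovered depth ran from 18506598 to 27706136 reads (thymus), from 3883639 to 31579294 (liver) and from 32483307 to 39568081 (spleen), with liver replicate 3 the shallow one. In that library 1 read is worth 6.03 normalised units, so low values are coarse there. Counting intervals below cover counting error only. All 8 of the iNKT1 marker genes were measured, and their summed value ran from 136793 to 159084 in thymus, from 157296 to 175861 in liver and from 118593 to 135871 in spleen libraries. Within that list Il2rb was higher in liver (66906 ± 4922) than in thymus (38614 ± 2206), and Klrb1c was lower (5095 ± 891 against 9483 ± 4325). Tbx21 was at 1386, 5762 and 1868 in the thymus libraries, 2353, 3513 and 2321 in the liver and 3600, 2733 and 3560 in the spleen. Zbtb16 was at 2624 ± 857 in the thymus, 1578 ± 615 in the liver and 2394 ± 205 in the spleen. The libraries numbered 2 had Xist at 84543 to 107736 and at most 21 reads of 4 Y-linked genes, 5 other libraries had Xist at no more than 125, and thymus replicate 3 had both Xist at 16531 and 7016 Y-linked reads.

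Gimap7 was higher in iNKT1 cells of both peripheral tissues than in those of the thymus. It averaged 205 in thymic iNKT1 cells against 4984 in liver and 3255 in spleen, which is 24.3 and 15.9 times as much. It was the only member of the 8 past the threshold in any comparison. No member was lower in a peripheral tissue than in thymus past that threshold (0.12% of all genes tested were so in liver and 0.21% in spleen), and none passed it between liver and spleen.

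Gimap7 encodes a GIMAP protein that can pair with relatives of the family and stimulate their GTP hydrolysis. The gene is ENSMUSG00000043931 in the deposited table. Its value was 29.2, 437 and 148 in thymus replicates 1, 2 and 3. In the liver it was 4669, 5498 and 4784, and in the spleen 3063, 3000.25 and 3701. All 6 peripheral libraries lay above all 3 thymus libraries, and all 3 liver libraries lay above all 3 spleen libraries. In recovered reads the thymus libraries held 26, 378 and 118 reads of Gimap7, the liver libraries 5366, 6401 and 794, and the spleen libraries 4107, 4358 and 6168. The gene was therefore detected in every library, the shallow one included. Between the lowest and highest library of a tissue the value differed 15.0-fold in the thymus, 1.18-fold in the liver and 1.23-fold in the spleen. The thymus spread of Gimap7 was the widest of any member in any tissue.

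**Figure D2:**
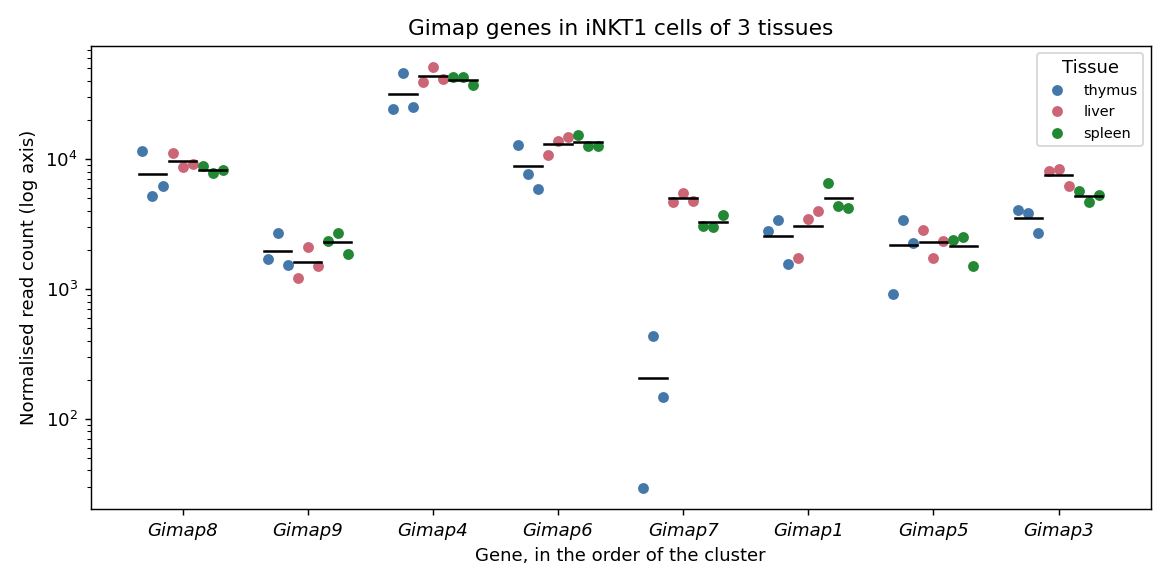
Normalised read counts of the 8 members in each of the 9 libraries on a log axis, with points for libraries and a bar for the mean of each tissue. Gimap7 lies at 29.2 to 437 in the thymus, below all 6 peripheral libraries at 3000.25 to 5498, whereas the values of most other members overlap between tissues.

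In limma-trend the log2 fold change of Gimap7 in liver vs thymus was 5.31 (SE 0.72), with an adjusted p of 0.00507. In spleen vs thymus it was 4.69 (SE 0.72), with an adjusted p of 0.00997 in limma-trend. The scale of these fold changes is log2(value + 1). They are differences of mean log2 values, so they do not match the ratios of mean values given above (24.3 and 15.9). By p-value Gimap7 stood 6 of 13309 genes in liver vs thymus and 13 of 13309 in spleen vs thymus. The median gene lay at 0.29 and 0.33 in those comparisons, and relative to it Gimap7 was at 5.02 and 4.37. These 2 comparisons share the thymus libraries, so they are not independent of each other. In bulk libraries fewer cells that express a gene and less RNA per cell cannot be told apart.

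For the 8 members, 1 was called higher in liver than in thymus, where 0.323% of all genes tested were called and 0.203% were called higher. In spleen vs thymus the count was also 1 of 8, with 0.398% of all genes called and 0.188% called higher. In liver vs spleen limma-trend called 0 of 8 members, against 0.015% of all genes; at an unadjusted p under 0.05 it also had 0 of 8 (3.03% of all genes), and edgeR and DESeq2 on the recovered reads called 0. An F-test for any tissue difference called Gimap7 alone of the members, with an adjusted p of 0.00573 in limma-trend, where 0.346% of genes passed.

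The call in spleen vs thymus was lost, at nearly the same size, in a limma-trend fit of only the 6 samples compared (4.69, adjusted p = 0.098). It was also lost when any of the 3 spleen libraries was left out: limma-trend gave 4.73 without spleen replicate 1 (adjusted p = 0.0599), 4.75 without replicate 2 (0.0594) and 4.60 without replicate 3 (0.0722). The call in liver vs thymus was lost without liver replicate 1 (5.35, adjusted p = 0.0524 in limma-trend). Leaving out thymus replicate 1 gave a log2 fold change of 4.28 in liver and 3.67 in spleen, and leaving out thymus replicate 2 gave 6.21 and 5.60, all past the threshold. With the libraries numbered 2 left out of every tissue, the values were 6.14 (adjusted p = 0.00789) and 5.65 (adjusted p = 0.0113) in limma-trend, an alternative added after the data had been seen. Among the libraries numbered 2 alone, with 1 per tissue and no test, Gimap7 was 12.6 times as high in liver and 6.86 times as high in spleen as in thymus.

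Gimap7 was also given as a share of the reads of all 8 members, which does not depend on library scaling. It took 0.0502% of them in thymus replicate 1 (26 of 51762; Wilson 95% interval 0.0343 to 0.0736). In replicates 2 and 3 it took 0.603% (0.545 to 0.667) and 0.324% (0.270 to 0.387). The shares in the liver were 5.85% (5.70 to 6.00), 5.78% (5.64 to 5.92) and 5.67% (5.30 to 6.06). Those in the spleen were 3.52% (3.41 to 3.63), 3.70% (3.60 to 3.81) and 4.96% (4.84 to 5.09). The intervals of the liver libraries overlapped in spite of their uneven depth, while those of the thymus libraries overlapped neither with each other nor with the periphery. The spleen share of replicate 3 lay outside the intervals of the other spleen libraries and below those of the liver.

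**Figure D3:**
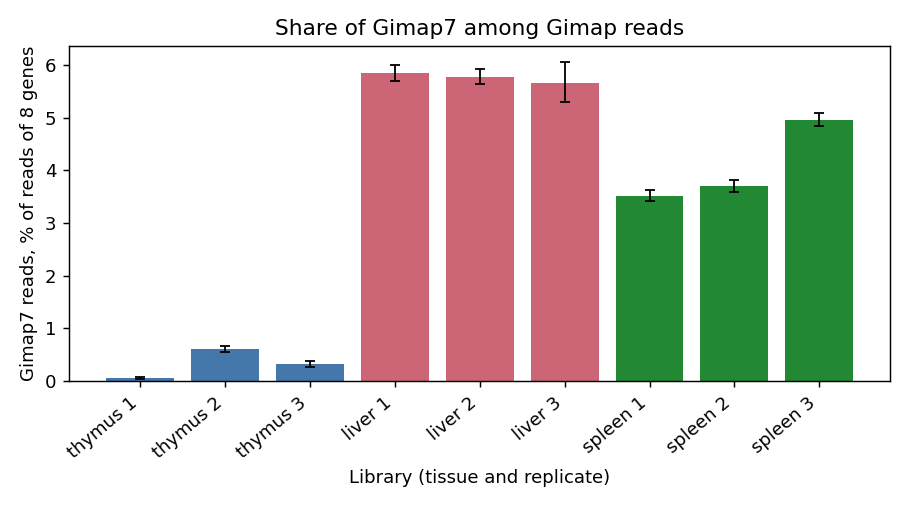
Reads of Gimap7 as a percentage of the reads of all 8 members in each library, on a linear axis, with Wilson 95% intervals for counting error. The liver libraries lie at 5.67% to 5.85%, the spleen libraries at 3.52% to 4.96% and the thymus libraries at 0.0502% to 0.603%.

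Markers of other cells varied as well, between libraries of a tissue and between tissues. The hepatocyte markers in the table (6 of 7 listed) had sums of 110 to 868 (thymus), 1289 to 1798 (liver) and 0.525 to 40.5 (spleen). Most of the thymus sum was Trf, which was lower in the liver, at 305 ± 259 in the thymus and 23.5 ± 18.3 in the liver. Alb went the other way, at 117 ± 137 in the thymus and 1349 ± 215 in the liver. The B cell markers (4 of 6 listed) had 0 reads in each thymus library and sums of 1.69 to 747 in liver and 0.630 to 2122 in spleen libraries. The myeloid markers (5 of 6 listed) summed to 10.6 to 315, 25.6 to 1298 and 56.3 to 3040 in thymus, liver and spleen. Spleen replicate 2, with B cell markers at 0.630 and myeloid markers at 56.3, had Gimap7 at 3000.25, and liver replicate 2, at 1.69 and 25.6, had it at 5498. The same libraries were the highest for other markers. Liver replicate 2 had the highest hepatocyte sum (1798) and spleen replicate 2 the highest Pecam1 (1335). Of 8 endothelial markers only Pecam1, which leukocytes also express, was in the table, at 71.7 to 302 (thymus), 458 to 671 (liver) and 394 to 1335 (spleen). Markers of immature thymocytes (4 of 6 listed) had sums of 75.3 to 635 (thymus), 165 to 287 (liver) and 232 to 309 (spleen). Those of natural killer cells (4 of 4) summed to 766 to 1418, 161 to 1388 and 59.1 to 154. Within that list Klra4 and Klra8 were highest in the thymus and made up most of its sum, with Klra4 at 803 ± 241 in the thymus and 191 ± 128 in the liver. Ncr1 went the other way, with 0 reads in each thymus library, 708, 16 and 22 in the liver libraries and 1, 2 and 60 in the spleen libraries. Rag1 of the thymocyte list reached 486 in thymus replicate 3 and had at most 1 read in any other library. The part of any of these cell types in the Gimap7 difference was not tested.

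The promoters of 3 members are shown because they share a motif while the members differ in how they varied over the tissues. Gimap7 is the member that passed the test, Gimap4 the most abundant one and Gimap1 the downstream neighbour of Gimap7. Each run is the 250 bases before the RefSeq start of the gene (GRCm38.p6), from 5′ to 3′ on the coding strand. Capitals mark matches to a RUNX motif (TGTGGT, read here on the opposite strand as ACCACA) and, in Gimap7, to a T-box motif (TCACAC).
Gimap7 (chr6:48718371-48718620, + strand): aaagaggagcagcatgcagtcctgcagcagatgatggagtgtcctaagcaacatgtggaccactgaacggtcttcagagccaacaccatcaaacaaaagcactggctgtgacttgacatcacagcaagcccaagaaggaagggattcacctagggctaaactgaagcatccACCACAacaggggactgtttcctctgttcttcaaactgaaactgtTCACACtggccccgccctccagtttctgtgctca
Gimap4 (chr6:48684328-48684577, + strand): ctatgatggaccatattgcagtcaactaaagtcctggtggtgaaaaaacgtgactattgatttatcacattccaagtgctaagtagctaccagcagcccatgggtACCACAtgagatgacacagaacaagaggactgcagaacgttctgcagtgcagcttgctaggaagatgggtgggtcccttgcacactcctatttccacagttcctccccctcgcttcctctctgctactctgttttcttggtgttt
Gimap1 (chr6:48738797-48739046, + strand): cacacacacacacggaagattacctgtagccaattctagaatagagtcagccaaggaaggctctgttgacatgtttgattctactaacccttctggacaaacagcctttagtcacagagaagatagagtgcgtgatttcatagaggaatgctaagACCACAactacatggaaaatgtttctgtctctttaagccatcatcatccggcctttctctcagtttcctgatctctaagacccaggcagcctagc
In Gimap7 the RUNX letters lay 79 to 74 bases before the start and the T-box letters 34 to 29 bases before it. The RUNX letters lay 145 to 140 bases before the start of Gimap4 and 95 to 90 before that of Gimap1. RefSeq gave 9 windows for the 8 members, since Gimap8 has 2 starts whose windows overlap. Searched on both strands, the RUNX motif was in 3 of 9 member windows against 14.0% of 32851 windows of the same length. The T-box motif was in 3 of 9 against 12.3%, in Gimap7 and in both windows of Gimap8. A FOXO motif (GTAAACA) was in 1 of 9, that of Gimap3, against 3.17%. An ETS motif (CCGGAA, in 12.03% of all windows), a KLF motif (CCACACCC, in 3.20%) and an NF-kB consensus motif (in 0.140%) had no match in the member windows. A match describes letters in a window and does not show binding.

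Gimap3 and Gimap5 are close relatives at the end of the cluster. Gimap3 is known from its effect on the sorting of mitochondrial DNA in blood cells, and Gimap5 from the survival of peripheral lymphocytes. The value of Gimap3 was 4062, 3839 and 2713 in the thymus libraries, 8077, 8411 and 6196 in the liver and 5709.9, 4673 and 5279 in the spleen. The 3 tissues did not overlap, with liver highest and thymus lowest. Liver vs thymus was 1.10 on the log2 scale (SE 0.29), with an unadjusted p of 0.0016 and an adjusted p of 0.165 in limma-trend, so it did not pass. DESeq2 on the recovered reads gave 1.07 with an adjusted p of 0.0152 and was the only one of 21 alternatives to call it. Spleen vs thymus was 0.58 (adjusted p = 0.450 in limma-trend).

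Gimap5 spread widely inside tissues and differed little between their means. Its value was 923, 3379 and 2269 in the thymus, 2829.96, 1746 and 2326 in the liver, and 2389, 2526 and 1495 in the spleen. The values of the 3 tissues overlapped, with means of 2190.1 ± 1230.0, 2301 ± 543 and 2137 ± 559.99. The log2 fold change was 0.23 (SE 0.49) in liver vs thymus and 0.12 in spleen vs thymus, with adjusted p-values of 0.889 and 0.953 in limma-trend. Both turned negative without thymus replicate 1, at -0.29 and -0.41. In GENCODE models 83 windows of 75 bases, the labelled read length, occur in both Gimap3 and Gimap5, which is 3.32% of those of Gimap3. Including the readthrough model Gm28053, 3.86% of the windows of Gimap5 occur in another gene, so a small part of the reads of either gene could not be assigned to it alone.

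Gimap1, a membrane-anchored member that mature T and B cells need, was highest in the spleen. Its value was 2803, 3378 and 1558 in the thymus, 1722, 3489 and 3973 in the liver and 6535, 4325 and 4207 in the spleen. All 3 spleen libraries lay above all others, while thymus and liver overlapped. Spleen vs thymus was 1.003 (unadjusted p = 0.0279, adjusted p = 0.353 in limma-trend) and liver vs spleen was -0.77 (unadjusted p = 0.0809), so neither passed. These values are uncertain, because 33.2% of the 75-base windows of Gimap1 occur in another gene, chiefly Gimap1os. Whether reads were counted by strand is not given in the sources used here, and without strand the reads of Gimap1 and Gimap1os cannot be told apart over 36.0% of the Gimap1 exons. Gimap1os itself was at 3049 ± 682 in the thymus, 6641 ± 2174 in the liver and 5280 ± 1250 in the spleen, with adjusted p-values of 0.214 and 0.358 against thymus in limma-trend.

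Gimap4, which accelerates the death of T cells that have been set on apoptosis, was the most abundant member in every library. Its value was 24157, 45860.1 and 25344 in the thymus, 39400.2, 51340.2 and 41601 in the liver and 42847, 43313 and 37064 in the spleen. Thymus replicates 1 and 3 lay below all peripheral libraries, but thymus replicate 2 lay among them. The log2 fold change was 0.53 (SE 0.22) in liver vs thymus and 0.43 in spleen vs thymus, with adjusted p-values of 0.371 and 0.462 in limma-trend. Of the summed value of the 8 members Gimap4 made up 53.5% ± 10.95 (SD, n = 3) in the thymus, 50.9% ± 2.70 in the liver and 50.8% ± 2.33 in the spleen.

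Gimap6 binds the autophagy protein GABARAPL2. Its value was 12824, 7743 and 5855 in the thymus, 10691, 13778 and 14923 in the liver and 15321, 12580.4 and 12741 in the spleen. Thymus replicate 1 lay within the peripheral range and the other thymus libraries below it. Liver vs thymus was 0.64 (adjusted p = 0.393 in limma-trend) and spleen vs thymus 0.69 (adjusted p = 0.337 in limma-trend).

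Gimap8, the member with several AIG1 domains in a single chain, was 11531, 5186 and 6257 in the thymus, 11234, 8763 and 9158 in the liver and 8852, 7885 and 8206 in the spleen. Here too thymus replicate 1 was the highest thymus library, above every peripheral one, and the other thymus libraries were below all of them. Its log2 fold changes were 0.42 in liver and 0.20 in spleen (adjusted p = 0.588 and 0.817 in limma-trend). Gimap9 was 1693, 2679 and 1527 in the thymus, 1219.65, 2098 and 1497 in the liver and 2346, 2701 and 1867 in the spleen, and its tissues overlapped. It was the only member with a log2 fold change below 0 in liver vs thymus, at -0.28 (adjusted p = 0.826 in limma-trend), and it was 0.26 in spleen vs thymus (adjusted p = 0.844 in limma-trend). Gimap4, Gimap6, Gimap8 and Gimap9 had no 75-base window in common with another gene.

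**Figure D4:**
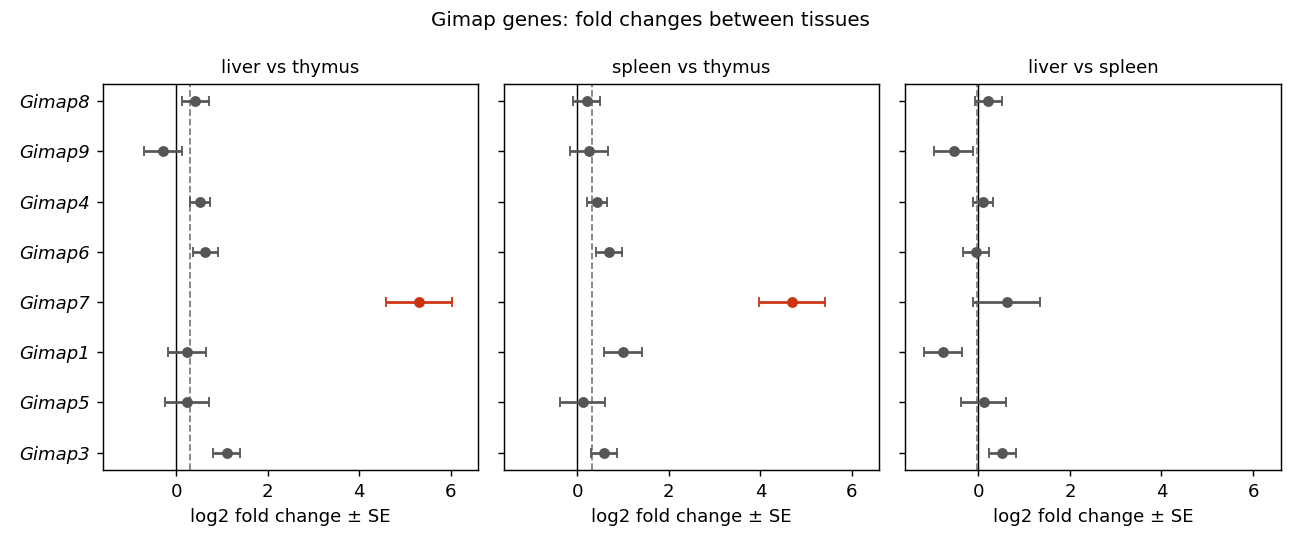
Log2 fold changes of the 8 members in liver vs thymus, spleen vs thymus and liver vs spleen, with bars of 1 standard error from limma-trend and the median of all genes as a line. Gimap7 stands at 5.31 and 4.69 against thymus, the other members between -0.28 and 1.10, and no member passed the test in liver vs spleen.

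As a group the members leaned towards higher values outside the thymus, as did the table as a whole. The log2 fold change was above 0 for 7 of 8 members in liver vs thymus and for 8 of 8 in spleen vs thymus, against 59.9% and 61.2% of all genes tested. The median of the members was 0.48 and 0.50, beside 0.29 and 0.33 for all genes. At an unadjusted p under 0.05, limma-trend had 4 of 8 members in liver vs thymus (Gimap3, Gimap4, Gimap6 and Gimap7), where 11.6% of all genes lay. It had 3 of 8 in spleen vs thymus (Gimap1, Gimap6 and Gimap7), against 11.7%. In liver vs thymus 2 of 8 members did not overlap between tissues and were higher in liver (Gimap3 and Gimap7), against 9.61% of all genes (15.3% in either direction). In spleen vs thymus 3 of 8 were so (Gimap1, Gimap3 and Gimap7), against 9.29% (15.3% in either direction). The summed value of the 8 was 58731 ± 13430 in the thymus, 86474 ± 7837 in the liver and 80875 ± 6252 in the spleen, and without Gimap7 it was 58526 ± 13279, 81490 ± 7395 and 77621 ± 6579.

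No member passed the test between liver and spleen iNKT1 cells. By their values 3 of 8 did not overlap between these tissues, against 12.7% of all genes in either direction. Gimap3 and Gimap7 were higher in each liver library (as were 5.97% of all genes), and Gimap1 was lower. The log2 fold change was above 0 for 5 of 8 members, against 48.9% of all genes. For Gimap7 the difference was 0.62 (SE 0.72), an average 1.53 times as high in liver, with an unadjusted p of 0.407 in limma-trend. The fit shares its estimate of spread over all 9 samples, thymus included. That SE and p therefore do not measure the spread of liver and spleen alone. Between lowest and highest library Gimap7 differed 15.0-fold in thymus, 1.18-fold in liver and 1.23-fold in spleen. For Gimap3 the liver vs spleen difference was 0.53 with an unadjusted p of 0.0877 in limma-trend. The members' median difference was 0.11, beside -0.02 for all genes.

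Levels between genes were compared per kb of exon. In the thymus the order was Gimap4 (17304 normalised reads per kb), Gimap6 (2519), Gimap8 (2069.8), Gimap3 (1373), Gimap9 (1197), Gimap1 (839), Gimap5 (528) and Gimap7 (88.1). Neighbours in that order overlapped over the 3 libraries except Gimap4 above Gimap6 and Gimap5 above Gimap7. In the liver the order was Gimap4 (24014), Gimap6 (3756), Gimap3 (2934), Gimap8 (2626), Gimap7 (2144), Gimap1 (996), Gimap9 (977) and Gimap5 (554). Gimap7 thus stood last in the thymus and in the middle of the family in the liver, where all of its libraries lay above those of Gimap1 and, by a narrow gap, below those of Gimap8. Gimap4 above Gimap6 and Gimap9 above Gimap5 were the other neighbours there that did not overlap. In the spleen it was Gimap4 (22359.6), Gimap6 (3875), Gimap8 (2247), Gimap3 (2026), Gimap1 (1634), Gimap9 (1404), Gimap7 (1399.8) and Gimap5 (515). Gimap7 overlapped there with Gimap9 and lay above Gimap5 in every library. Gimap4 above Gimap6 and Gimap6 above Gimap8 were apart too, and the other neighbours overlapped.

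Across the 9 libraries the 28 pairs of members had Pearson correlations of log2 values between -0.53 (Gimap8 with Gimap5) and 0.82 (Gimap7 with Gimap4), with a median of 0.41 and 21 pairs above 0. These describe 9 libraries that share tissue, scaling and depth. The genes whose pattern over the 9 libraries was most like the mean of the 8 members, among 8931 with a mean of at least 100, were Trbc2 (r = 0.957), which encodes a constant region of the T cell receptor beta chain, Rhno1 (0.947), Cox4i1 (0.945), a subunit of cytochrome c oxidase, Apbb1ip (0.938), an adaptor of integrin activation, and Cpt1a (0.929), which brings fatty acids into mitochondria. None of these 5 passed the threshold in any comparison.

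The gene most like Gimap7 itself, a search made after its values had been seen, was Themis (r = 0.984 over the 9 libraries), a regulator of T cell receptor signalling in thymocytes. Themis was at 127, 1043 and 465 in the thymus libraries, 5756, 3685 and 4234 in the liver and 5886, 3733 and 4353 in the spleen. As for Gimap7, all peripheral libraries lay above all thymus libraries, with thymus replicate 1 lowest and replicate 2 highest in the thymus. Its log2 fold change was 3.499 in liver vs thymus (adjusted p = 0.0197) and 3.53 in spleen vs thymus (adjusted p = 0.0151), both in limma-trend. The next were Nif3l1 (0.976), Ddt (0.972), Raver1 (0.959) and Cd72 (0.957), none past the threshold.

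The gene groups below, only some of them settings in which GIMAP proteins are known to act, had 0 or 1 genes called by limma-trend. With 3 libraries a group this does not show that the others were equal. Of the BCL2 family, which sets the threshold for apoptosis, limma-trend called 0 of 11 tested genes in each of the 3 comparisons, and at an unadjusted p under 0.05 it had 0, 1 and 1 of them in liver vs thymus, spleen vs thymus and liver vs spleen. Neither edgeR nor DESeq2 on the recovered reads called any of them. Bcl2, the survival factor that gives the family its name, was at 10354 ± 1196 in the thymus, 12849 ± 3096 in the liver and 6780.4 ± 751 in the spleen, and liver vs spleen was 0.90 with an unadjusted p of 0.00203 in limma-trend. Bak1, which opens the outer mitochondrial membrane, was at 1150.3 ± 498 in the thymus, 2614 ± 1428 in the liver and 1945 ± 1309 in the spleen. The group's median log2 fold change was 0.48 in liver vs thymus and 0.24 in spleen vs thymus, beside 0.29 and 0.33 for all genes.

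The ATG8 family, to which the partner of GIMAP6 belongs, and its conjugation machinery had 0 of 13 genes called by limma-trend in each comparison, where 0, 2 and 1 had an unadjusted p under 0.05. By edgeR 0 were called, and DESeq2 on the recovered reads called Map1lc3b lower in spleen than in thymus. Map1lc3b, an autophagosome membrane protein, was at 2239.7 ± 439.8 in the thymus, 1154 ± 317 in the liver and 523 ± 158 in the spleen (spleen vs thymus -2.13, adjusted p = 0.106 in limma-trend). Gabarapl2 was at 203 ± 155 in the thymus, 283 ± 117 in the liver and 252 ± 251 in the spleen, which overlap. Gabarap itself was at 677 ± 368 (thymus), 1285 ± 723 (liver) and 1753 ± 646 (spleen), and the group's median was 0.62 in liver vs thymus and 0.41 in spleen vs thymus.

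Of 16 lysosome, GSK3B and mTORC1 genes, settings in which GIMAP5 acts, limma-trend called 0 in each comparison, where 4, 1 and 0 had an unadjusted p under 0.05. By edgeR 0 were called, and DESeq2 called Lamtor1, a lysosomal anchor of mTORC1 signalling, higher in both peripheral tissues than in thymus. Lamtor1 was at 23.8 ± 20.7 in the thymus, 297 ± 76.0 in the liver and 529 ± 485 in the spleen. Gsk3b, a kinase known to be restrained by GIMAP5, was at 5051 ± 2135 in the thymus, 5572 ± 1303 in the liver and 5790.1 ± 215 in the spleen. Tsc1, an inhibitor of mTORC1, was at 3084 ± 2260.2 in the thymus, 961 ± 408 in the liver and 1229 ± 441 in the spleen. The group's median was 0.22 in liver vs thymus and 0.18 in spleen vs thymus.

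The interferon-inducible GTPases, an unrelated set of immune GTPases, had 0 of 13 tested genes called by limma-trend in each comparison, where 2, 0 and 1 had an unadjusted p under 0.05, and 0 by edgeR or DESeq2. Their median was 0.66 in liver vs thymus and 0.12 in spleen vs thymus. Irgm1, a GTPase of interferon-induced resistance to bacteria, was at 1131 ± 401 in the thymus, 2360.4 ± 621 in the liver and 1936 ± 146 in the spleen. Its relative Tgtp1 was at 182 ± 159, 615 ± 148 and 446 ± 213.

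Of 10 tested genes of lymphocyte recirculation and maturation, limma-trend called 1 in liver vs thymus and 0 in the other comparisons. At an unadjusted p under 0.05 it had 3 in liver vs thymus, 6 in spleen vs thymus and 1 in liver vs spleen. The gene called was Il7r, the alpha chain of the interleukin 7 receptor, at 39232 ± 11152 in the thymus, 3638 ± 1352 in the liver and 13699 ± 4522 in the spleen. The liver vs thymus value was -3.47 on the log2 scale (adjusted p = 2.0e-04 in limma-trend), the opposite direction to Gimap7. By edgeR Il7r alone was called in liver vs thymus, and 0 in spleen vs thymus and in liver vs spleen. DESeq2 called Il7r and Klf2 lower in liver than in thymus, and 1 in liver vs spleen (Il7r). Klf2 was at 1056 ± 1423 in the thymus and 53.2 ± 23.8 in the liver (-3.37, adjusted p = 0.341 in limma-trend).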

How the data were processed

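RNA-seq of 9 libraries was used. Per the labels' protocols, RNA came from a micro kit, libraries from an ultralow-input kit, and sequencing ran for 76 cycles. The submitters' processing notes name Trimmomatic 0.33, TopHat2 2.1.0, HTSeq 0.6.1, edgeR and mm10, with no roles. The deposited table holds 1 normalised count per gene and library, here treated as a signal, since the authors' values are not whole.

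Within a library, low values are spaced by a fixed step. Reads were recovered from that spacing, with 92.4% of 15737 values of at most 20 reads within 0.1 of a whole read (68.0% in liver replicate 3, whose reads are approximate, and 98.2% to 100% elsewhere). Symbols matched 13359 of 14004 genes.

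Tests used limma-trend (limma 3.58.1, R 4.3.3) on log2(value + 1), keeping genes that reached 1 in 3 or more samples, with all 9 samples in 1 fit, a tissue term, two-sided tests, Benjamini-Hochberg adjustment and a threshold of 0.05. The design had planned for this unit. All 8 members are named whatever their values, then the listed partner genes past the threshold or, failing that, those with the smallest p, plus Gabarapl2 and Gsk3b as known partners, chosen after their values were seen. Klf2 was named because DESeq2 called it in liver vs thymus. Motif shares, likeness and markers are descriptions. The DESeq2 calls of the recirculation list in spleen vs thymus are not reported here. Members and lists were chosen with earlier results of these data known. In 5 simulated liver vs thymus tables of 13195 genes the procedure called 27.2% of 4-fold, 55.6% of 8-fold, 74.4% of 16-fold and 84.4% of 32-fold changes, all with the right sign, with 5.18% of calls false. The changed genes there lay above the lower quartile of mean level and were all raised in liver. These rates therefore do not cover genes of lower level or decreases. Alternatives were the scaling, filter, pseudocount, tool (edgeR 4.0.16 and DESeq2 1.42.0 on recovered reads), samples fitted, weights, replicate block and each library left out.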

Additional observations from a re-analysis of the deposited data

How the results depend on the processing

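The call of Gimap7 was kept in 20 of 21 alternatives in liver vs thymus (log2 fold change 4.28 to 6.21, adjusted p from 3.79e-09 to 0.0524 over limma-trend, edgeR and DESeq2), in 17 of 21 in spleen vs thymus (3.67 to 5.65, or 3.67 to 5.60 with each library left out, and 4.69 with only the 6 samples compared, adjusted p from 7.18e-07 to 0.098) and in all 20 of the F-test. Counts of members called were 2 in liver vs thymus by DESeq2, 0 in spleen vs thymus with only the 6 samples compared, and 0 to 1 with each library left out in both comparisons. The count over all genes was 43 in liver vs thymus against 22 by edgeR, 455 by DESeq2, 12 with only the 6 samples, 12 with the libraries numbered 1 and 3 only and 8 to 151 with each library left out. In spleen vs thymus it was 53 against 512 by DESeq2, 16 with only the 6 samples, 19 with the libraries numbered 1 and 3 and 9 to 140 with each library left out. In liver vs spleen it was 2 against 22 by DESeq2, 6 with only the 6 samples, 18 with array weights, 4 with the replicate block, 0 with the libraries numbered 1 and 3 and 0 to 3 with each library left out. For the F-test it was 46 against 30 by edgeR, 357 by DESeq2, 74 with array weights, 16 with the libraries numbered 1 and 3 and 18 to 74 with each library left out. The cause was not tested, except that dropped libraries leave fewer samples.

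Calls higher and lower in liver than in thymus were 27 and 16, against 34 and 14 with equal library totals over non-mitochondrial genes, and in spleen vs thymus 25 and 28 against 22 and 16. That scaling moved the median of all genes from 0.29 to 0.45 and from 0.33 to 0.48, and Gimap7 to 5.48 and 4.86.

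Directions that turned belonged to members that had not passed. In liver vs thymus Gimap1 (-0.10 to 0.60 with each library left out) was -0.10 without thymus replicate 3 and -0.00062 without liver replicate 3, and Gimap5 (-0.29 to 0.64) -0.29 without thymus replicate 1. In spleen vs thymus Gimap5 (-0.41 to 0.52) was -0.011 by edgeR, -0.065 by DESeq2, -0.016 with array weights, -0.41 without thymus replicate 1 and -0.023 without spleen replicate 2, and Gimap8 (-0.033 to 0.54) -0.033 without thymus replicate 2. In liver vs spleen Gimap4 (-0.017 to 0.17) was -0.017 without liver replicate 2, Gimap5 (-0.12 to 0.30) -0.047 without liver replicate 1 and -0.12 without spleen replicate 3, and Gimap6 (-0.15 to 0.088) 0.067 with array weights, 0.088 without liver replicate 1 and 0.038 without spleen replicate 1.

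Same-numbered libraries had correlations of their deviations from -0.0007 to 0.0891, and differently numbered ones from -0.0866 to 0.0484. Between liver and spleen the same-numbered values (0.0290 to 0.0891) all lay above the others (-0.0866 to 0.0132). The libraries numbered 2 also share high Xist and few Y-linked reads. The main fit did not take the numbers as pairs, and whether they are pairs cannot be told from these values. With the replicate block the all-gene counts were 42, 55, 4 and 45, and the adjusted p of Gimap7 in limma-trend was 0.00357 and 0.00479. With 3 libraries a group, and 1 of them shallow, a member that did not pass is not shown to be equal between tissues.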

Other observations

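Genes that border the cluster had log2 fold changes above 0 in liver vs thymus. Before it lie Repin1, Zfp775 and AI854703, and after it Tmem176b, Tmem176a and Gpnmb, none of them past the threshold in limma-trend. Tmem176b, which encodes a membrane protein of myeloid and type 3 lymphoid cells, was at 33.97 ± 43.3 in the thymus, 1494 ± 1085 in the liver and 227 ± 308 in the spleen (SD, n = 3). The liver vs thymus value was 6.70 on the log2 scale, above the 5.31 of Gimap7, but its adjusted p was 0.198 in limma-trend, given the spread between libraries. Tmem176a was at 6.67 (adjusted p = 0.283 in limma-trend) and AI854703 at 4.28 (adjusted p = 0.431 in limma-trend) in the same comparison. Gpnmb was at 1.53, Zfp775 at 1.39 and Repin1 at 0.47.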
